A study of Mus musculus with 9 samples.

Results

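The cell cycle was examined through 38 genes of the 50508 gene symbols counted in the series. The list was given by name and held 17 genes of S phase, the period in which DNA is replicated, and 21 genes of mitosis and the approach to it. All 38 were found in the count table and all 38 passed the filter on low counts. The S phase genes were the E cyclins Ccne1 and Ccne2, the origin and helicase genes Cdc6, Cdc45, Gins2 and Mcm2 to Mcm7, the sliding clamp Pcna, the nucleotide enzymes Tyms, Rrm1, Rrm2 and Tk1, and the chromatin factor Uhrf1. The mitotic genes were Mki67, Top2a, Cdk1, Ccna2, Ccnb1, Ccnb2, Cdc20, Birc5, Aurka, Aurkb, Bub1, Bub1b, Plk1, Kif11, Kif20a, Cenpe, Cenpf, Tpx2, Nusap1, Hmmr and Ube2c.

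Conventional T cells (T), conventional dendritic cells (DC) and a population that the submitters name TDC had been sorted from the spleens of naive, untreated mice aged 8 weeks. The mice of all 3 groups were homozygous for Zbtb46-GFP, in which a fluorescent reporter marks cells that use Zbtb46, a locus active in conventional DC, so no group without the reporter is analysed here. Each group had 3 libraries, and each library came from pooled spleens of 5 mice (replicate 1) or of 6 mice (replicates 2 and 3). No source used here gives the sort gates. Count columns with the same replicate number share a name prefix, but the labels do not say whether their pools shared animals. Libraries were made with the stranded Lexogen QuantSeq kit, which reads near the 3′ ends of transcripts. Because each library is a pool, every p-value rests on the spread between pools.

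A resting cell that enters the cycle builds up D and E cyclins, whose kinases phosphorylate RB and so free E2F factors to switch on the genes of DNA replication. A later wave, driven by B-MYB and FOXM1 with the MuvB complex, brings the kinases, motors and checkpoint proteins of mitosis, and it uses promoters with a cell cycle genes homology region (CHR) and CCAAT boxes, the latter bound by NF-Y. In the spleen of a resting mouse most T cells are quiescent, while conventional DC come from precursors that still divide.

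Promoters were read from RefSeq (GRCm38.p6) as 250 bases before and 50 bases after each annotated start, and 31 of the 38 genes had one, 14 of S phase and 17 of mitosis. The motifs searched on both strands were the E2F site (TTCCCGC or one of the variants TTGGCGC or TTCGCGC or TTGCCGC), the CHR element (TTTGAA or TTCGAA) and the CCAAT box (CCAAT), and matches that overlap were each counted. An E2F site was found for 8 of the 14 S phase genes (57.1%), for 4 of the 17 mitotic genes (23.5%) and for 10.9% of all 27025 genes with such a promoter. That background was not limited to genes with reads in these libraries. The promoter of Mcm6, which had the most E2F sites (5), and that of Mcm5, one of those with 3, as had Mcm3 and a promoter of Mcm7, are printed here to make these sites visible, as the 250 bases before the start, 5′ to 3′, with E2F sites in capitals. Mcm6 encodes a helicase subunit and lies at chr1:128359706-128359955 on the minus strand, and Mcm5, another subunit of the same ring, at chr8:75109259-75109508 on the plus strand.
Mcm6: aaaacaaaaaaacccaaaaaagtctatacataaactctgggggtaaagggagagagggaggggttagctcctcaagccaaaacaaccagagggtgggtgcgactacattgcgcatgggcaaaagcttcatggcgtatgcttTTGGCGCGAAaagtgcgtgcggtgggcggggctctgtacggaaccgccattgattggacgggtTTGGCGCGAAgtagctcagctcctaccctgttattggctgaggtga
Mcm5: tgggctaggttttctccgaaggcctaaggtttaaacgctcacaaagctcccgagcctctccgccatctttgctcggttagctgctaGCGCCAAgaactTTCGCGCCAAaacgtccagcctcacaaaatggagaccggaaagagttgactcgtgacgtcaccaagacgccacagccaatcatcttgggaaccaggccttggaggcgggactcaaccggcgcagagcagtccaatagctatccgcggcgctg
In Mcm6 each of the 2 capital runs holds a pair of E2F sites that overlap on opposite strands, which makes 4 in the stretch shown and 5 in the full 300 bases. In Mcm5 the 3 sites lie 149 to 164 bases before the start, and the longer run again holds an overlapping pair.

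The mitotic promoters carried another pair of motifs. A CHR element was found for 13 of 17 mitotic genes (76.5%), for 3 of 14 S phase genes (21.4%) and for 21.7% of all genes, and a CCAAT box for 15 of 17 (88.2%), 10 of 14 (71.4%) and 41.1%. The same 13 mitotic genes held both, against 8.61% of all genes. The 2 mitotic promoters with the most CHR elements and CCAAT boxes are shown in the same way, with both motifs in capitals. Top2a encodes the topoisomerase that untangles sister chromatids and lies at chr11:99024190-99024439 on the minus strand, and Ube2c, which encodes the ubiquitin-conjugating enzyme of the anaphase-promoting complex, at chr2:164769679-164769928 on the plus strand.
Top2a: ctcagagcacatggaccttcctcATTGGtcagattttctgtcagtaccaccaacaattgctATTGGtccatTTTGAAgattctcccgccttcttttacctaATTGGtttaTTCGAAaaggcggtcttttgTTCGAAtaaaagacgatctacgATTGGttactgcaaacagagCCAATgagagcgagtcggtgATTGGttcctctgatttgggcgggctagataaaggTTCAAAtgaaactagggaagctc
Ube2c: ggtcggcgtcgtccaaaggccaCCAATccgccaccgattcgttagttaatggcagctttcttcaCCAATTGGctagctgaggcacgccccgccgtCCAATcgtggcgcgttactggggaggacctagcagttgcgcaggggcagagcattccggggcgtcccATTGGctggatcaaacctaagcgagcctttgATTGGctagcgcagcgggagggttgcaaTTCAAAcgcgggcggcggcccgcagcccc
Top2a held 4 CHR elements and 6 CCAAT boxes, and Ube2c held 1 CHR element and 6 CCAAT boxes. A match of letters is a description of the promoter and was not tested as a bound site.

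**Figure D1:**
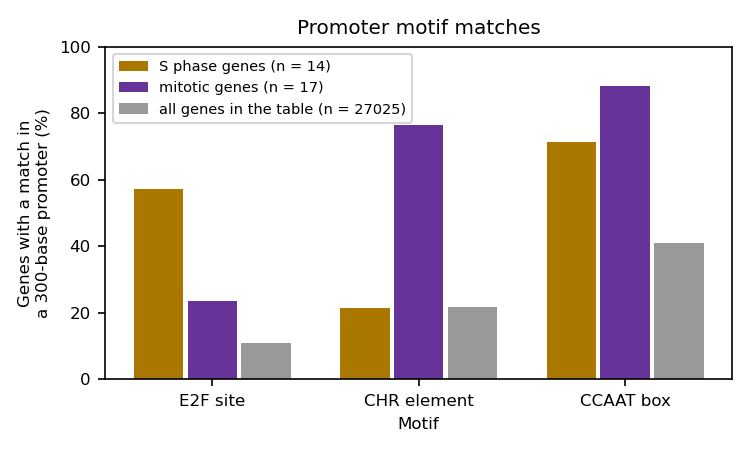
Bars give the percent of genes (y axis) whose 300-base RefSeq promoter holds at least 1 match to each motif (x axis), for 14 S phase genes, 17 mitotic genes and all 27025 genes of the promoter reference, not limited to genes with reads. E2F sites were most frequent in the S phase promoters (57.1%), and CHR elements in the mitotic promoters (76.5%).

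The libraries held 10986544 to 25676640 reads, and levels are given as CPM, the reads of a gene scaled to the library total with TMM factors, with means ± SD over n = 3 libraries. Marker genes differed between the groups as follows. The summed level of 8 T cell markers was 6715 to 9355 CPM in T libraries, 22.6 to 27.5 CPM in DC with Cd3e and Cd3g at 0, and 76.2 to 249.6 CPM in TDC. Summed over 9 DC markers, DC libraries held 44625 to 73406 CPM, TDC libraries 8319 to 16628 CPM and T libraries 111 to 183 CPM. Most of that sum came from Cd74 (means of 30348 CPM in DC and 8173 CPM in TDC) and H2-Ab1 (26289 and 3404 CPM), and in T cells from Dpp4 (123 CPM). Among the other DC markers, Cd209a had means of 676 CPM in DC and 31.5 CPM in TDC, Flt3 568 and 37.6 CPM, and Itgax 438 and 103 CPM. TDC libraries also carried 9 macrophage markers at 38524 to 71476 CPM, against 184 to 300.4 CPM in DC and at most 4.84 CPM in T cells, and 12 erythroid markers at 741 to 2245 CPM, against at most 115 CPM in DC libraries and 42.8 CPM in T libraries. In bulk RNA of this kind, fewer cells in cycle and less RNA per cell in cycle cannot be told apart, and the part of admixed cells in the results below was not tested.

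With TMM factors, cell cycle transcripts summed over either list were highest in DC. The mitotic genes summed to 68.2, 292 and 172 CPM in T cells, 797, 557 and 1000 CPM in DC and 125, 249 and 505 CPM in TDC (replicates 1, 2 and 3). Every DC library lay above every T and TDC library, and the T and TDC ranges overlapped. The S phase genes summed to 614, 771 and 923 CPM in T cells, 1115, 979 and 1204 CPM in DC and 439, 696 and 742 CPM in TDC. Here too the 3 DC libraries were the highest, with means of 769 ± 155 in T cells, 1099 ± 113 in DC and 626 ± 164 CPM in TDC. The separation of the S phase sums from T cells rested on the TMM factors. As a percent of all reads of a library, they overlapped, at 0.0794, 0.0864 and 0.120 in T cells and 0.113, 0.0854 and 0.135 in DC. The mitotic shares did not, at 0.00883, 0.0327 and 0.0224 in T cells and 0.0811, 0.0486 and 0.112 in DC. The group mean was highest in DC for 21 of 21 mitotic genes and for 13 of 17 S phase genes, against 29.1% of all tested genes.

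Mitotic reads can be set against S phase reads within a library, which needs no scaling between libraries. There were 11.1, 37.9 and 18.7 mitotic reads per 100 S phase reads in T cells, 71.5, 56.9 and 83.1 in DC, and 28.5, 35.8 and 68.0 in TDC. The DC libraries stood above the T libraries without overlap, while the TDC values reached from the T range into the DC range. These sums over a chosen list are a description and were given no test.

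**Figure D2:**
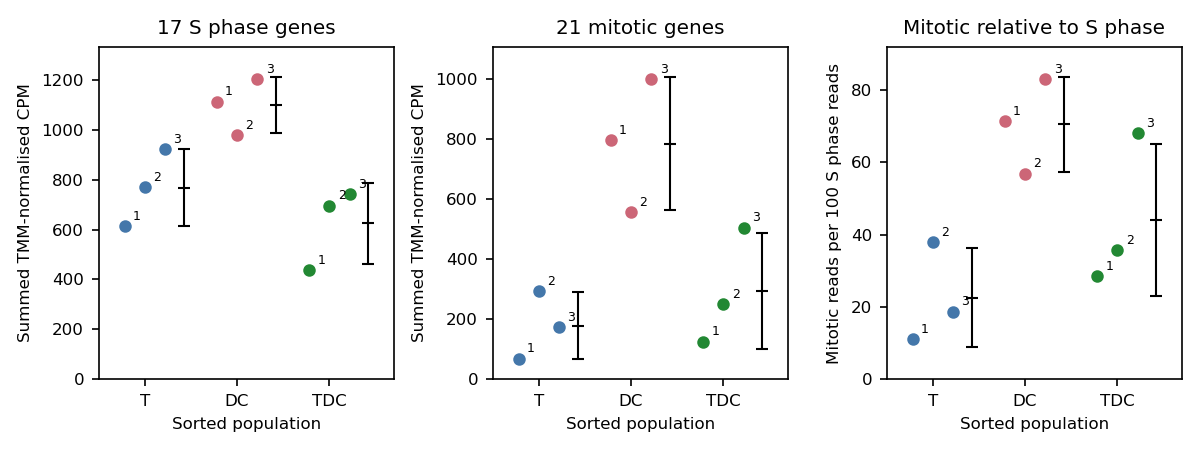
Points are the 9 libraries (numbers mark replicates) and bars the mean ± SD of each group, for the summed TMM-normalised CPM of 17 S phase genes, of 21 mitotic genes, and for mitotic reads per 100 S phase reads. With TMM factors the 3 DC libraries lie above all T and TDC libraries for both sums, and TDC replicate 3 reaches 68.0 mitotic reads per 100 S phase reads, inside the DC range.

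**Figure D3:**
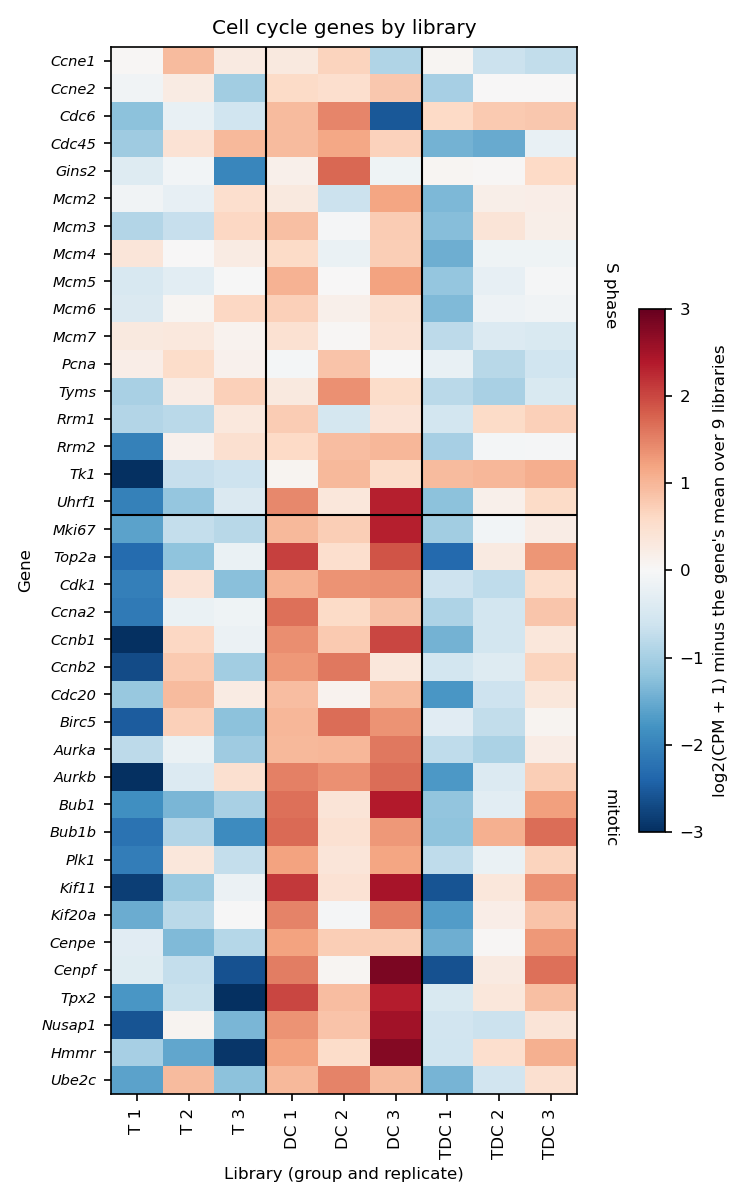
Colour gives log2(CPM + 1) of each gene (rows, S phase above the line and mitotic below) in each library (columns) minus the gene's mean over the 9 libraries. The mitotic rows are mostly red in DC and blue in T cells, and in TDC they are mostly blue in replicate 1 and mostly red in replicate 3.

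DC carried more mitotic transcripts than T cells. Of 21 mitotic genes 7 were called higher in DC and 0 lower (edgeR quasi-likelihood test, Benjamini-Hochberg adjusted p under 0.05 over 14708 genes), where 15.4% of all tested genes were called higher, 8.41% lower and 23.8% in either direction. None was lower at an unadjusted p under 0.05, nor by DESeq2 or limma-voom. All 21 fold changes were above 0, also with the other scalings tried, where 52.7% of all tested genes were above 0, with a median log2 fold change of 1.99 against 0.08 over all tested genes. For 17 genes every DC library lay above every T library, against 21.8% of all tested genes. Leaving out T replicate 1 left 2 of the 7 calls (Mki67 and Hmmr), and leaving out DC replicate 1 or DC replicate 3 left 4. DESeq2 and limma-voom each called 14. The 7 stem and progenitor markers summed to 84.7 to 247 CPM in DC, with Gata1 and Gata2 among those at 0, and to 6.22 to 12.9 CPM in T cells, with Cd34, Gata2, Meis1 and Hlf among those at 0, and their part in the result was not tested.

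Mki67, the Ki-67 coat protein of mitotic chromosomes and the common marker of dividing cells, stood at 6.4, 12.6 and 11.6 CPM in T cells and 42.8, 36.2 and 112 CPM in DC. All DC libraries were above all T libraries, with DC replicate 3 the highest. The mean was 10.2 ± 3.32 CPM in T cells and 63.5 ± 41.7 CPM in DC, a log2 fold change of 2.64 (SE 0.56, edgeR adjusted p = 0.00637). No single library ended this call, but it was lost without all libraries of replicate number 3 (edgeR adjusted p = 0.0609). The topoisomerase gene Top2a stood at 3.87, 9.43 and 20 CPM in T cells and 99.7, 33.2 and 88.4 CPM in DC. Its groups did not overlap either, with a log2 fold change of 2.73 (SE 0.90), and it missed the threshold (edgeR adjusted p = 0.0501), which it passed without T replicate 3, DC replicate 2, TDC replicate 1 or TDC replicate 3 (adjusted p 0.0152 to 0.0499).

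The spindle checkpoint kinase genes rose in DC. Bub1 was at 1.34, 2.27 and 3.3 CPM in T cells and 25.6, 9.96 and 42.5 CPM in DC, without overlap (log2 fold change 3.49, SE 0.84, edgeR adjusted p = 0.0117, 0.0515 without T replicate 1). Bub1b, which encodes the checkpoint protein BUBR1, was at 1.34, 4.89 and 1.96 CPM in T cells and 34.2, 13.9 and 25.7 CPM in DC. All DC libraries lay above all T libraries, with means of 24.6 ± 10.2 and 2.73 ± 1.9 CPM. The log2 fold change was 3.16 (SE 0.82, edgeR adjusted p = 0.0172), and the call was lost without T replicate 1 (0.0666), T replicate 3 (0.0657) or DC replicate 1 (0.0555).

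Aurka and Tpx2, which act in spindle assembly, rose in DC. Aurka, the centrosome kinase Aurora A, was at 8.3, 13.1 and 6.64 CPM in T cells and 30.6, 30.9 and 47.3 CPM in DC. The groups stood far apart relative to their spread, at 9.34 ± 3.35 and 36.3 ± 9.6 CPM, with a log2 fold change of 1.95 (SE 0.48, edgeR adjusted p = 0.0136, 0.0553 without T replicate 1 and 0.0581 without T replicate 3). Tpx2, which encodes the activator of Aurora A on microtubules, was at 2.81, 7.06 and 0 CPM in T cells and 49.9, 23.3 and 63.6 CPM in DC. T replicate 3 held no Tpx2 read, where 3 reads would be 0.155 CPM, and the log2 fold change was 3.79 (SE 1.16, edgeR adjusted p = 0.0377). That call was lost in 10 of 21 alternatives, among them without T replicate 1 (0.114), DC replicate 1 (0.0816), DC replicate 3 (0.0654), TDC replicate 2 (0.0513) or TDC replicate 3 (0.0542).

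Nusap1, which encodes a spindle-associated microtubule binder, was at 1.76, 16.7 and 5.51 CPM in T cells and 41.3, 29.3 and 94.1 CPM in DC. The lowest DC library lay above the highest T library, and the log2 fold change was 2.77 (SE 0.78, edgeR adjusted p = 0.0254), lost without T replicate 1 (0.0575), T replicate 3 (0.0907) or DC replicate 3 (0.0753). Hmmr, which encodes a hyaluronan receptor that also acts at spindle poles, was at 2.74, 1.53 and 0 CPM in T cells, with no read in replicate 3, and 16.5, 9.96 and 49.4 CPM in DC. No T library reached the DC range, and the log2 fold change was 4.16 (SE 1.22, edgeR adjusted p = 0.0308), lost without T replicate 2 (0.0925), DC replicate 1 (0.051) or DC replicate 3 (0.0825).

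The remaining 14 mitotic genes did not pass, with log2 fold changes of 0.47 to 3.31. Cdk1, the kinase that drives entry into mitosis, was at 2.25, 17 and 4.69 CPM in T cells and 27, 33.6 and 34 CPM in DC, where the DC libraries lay close together and above all T libraries (log2 fold change 1.98, SE 0.71, edgeR adjusted p = 0.0694, 0.0095 without T replicate 2). For Cdc20, the activator of the anaphase-promoting complex, Ccnb2, a B cyclin, Ube2c and the cytokinesis kinesin gene Kif20a the libraries of the groups overlapped. T replicate 2 reached into the DC range for Cdc20, Ccnb2 and Ube2c (T replicate 3 as well for Cdc20), at 37.6, 31.1 and 34.8 CPM against lowest DC values of 20.7, 22.8 and 34.6 CPM. The 3′ ends of Cdc20, Ube2c, Kif20a and the A cyclin gene Ccna2 overlap genes on the opposite strand in GENCODE M21, and no source used here gives the strand setting of the counting, so the reads of Cdc20, Kif20a and Ccna2 may include those of the neighbours. The neighbour of Ube2c, Tnnc2, had 0 reads.

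Among the S phase genes Uhrf1 was called higher in DC, a smaller share than among all tested genes. Of 17 genes 1 was called higher in DC and 0 lower by edgeR (the same 15.4% and 8.41% of all tested genes apply), 3 were higher and 0 lower at an unadjusted p under 0.05. DESeq2 called 3 higher and limma-voom 2, and both called 0 lower. The median log2 fold change was 0.69 (1.15 without T replicate 3 and 0.38 with library size alone), with 16 of 17 above 0 (13 with library size alone) against 52.7% of all tested genes. For 5 genes (Ccne2, Mcm5, Rrm2, Tk1 and Uhrf1) the DC libraries all lay above the T libraries, against 21.8% of all tested genes. The called gene was Uhrf1, whose product keeps DNA methylation in place behind the replication fork. It was at 2.95, 6.27 and 10.9 CPM in T cells and 42.5, 19.5 and 80.7 CPM in DC, without overlap and with a wide spread among DC libraries. The log2 fold change was 2.82 (SE 0.71, edgeR adjusted p = 0.015), and the count of S phase calls fell to 0 without T replicate 1 (0.0566) or T replicate 2 (0.0577) and was 2 without DC replicate 2, DC replicate 3 or TDC replicate 1.

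The clamp gene and most helicase genes overlapped between the 2 controls. Pcna, the sliding clamp, was at 159.9, 203 and 152 CPM in T cells and 133, 251 and 137 CPM in DC. The ranges overlapped, with means of 172 ± 27.8 and 174 ± 67.2 CPM and a log2 fold change of 0.02 (SE 0.33, edgeR adjusted p = 0.987), whose sign turned under several alternatives. Mcm2, a helicase subunit, was at 50.9, 46.2 and 79.1 CPM in T cells and 67.4, 35.1 and 126 CPM in DC, where DC replicate 2 was below all T libraries and DC replicate 3 above them (log2 fold change 0.38, SE 0.53, edgeR adjusted p = 0.673, with the log2 fold change at -0.19 without DC replicate 3).

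DC replicate 2 was the lowest DC library for all 6 Mcm genes, and its Mcm5 level of 64.4 CPM was near the 45.2, 50.9 and 62.7 CPM of T cells, while the other two DC libraries held 133 and 148 CPM. The same library was the highest of the DC group for 7 of 17 S phase genes (Pcna, Tyms, Tk1, Cdc6, Cdc45, Gins2 and Ccne1), near the 40.2% of all tested genes. It was the lowest for 9 of 17, against 35.4% of all tested genes. Rrm2, the small subunit of ribonucleotide reductase, was at 10.7, 50.6 and 64.7 CPM in T cells and 70.5, 89 and 94.2 CPM in DC, with T replicate 1 well below the other T libraries (log2 fold change 1.01, SE 0.56, edgeR adjusted p = 0.232). The log2 fold changes of the 16 genes not called ran from -0.34 (Ccne1) to 1.83 (Tk1).

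**Figure D4:**
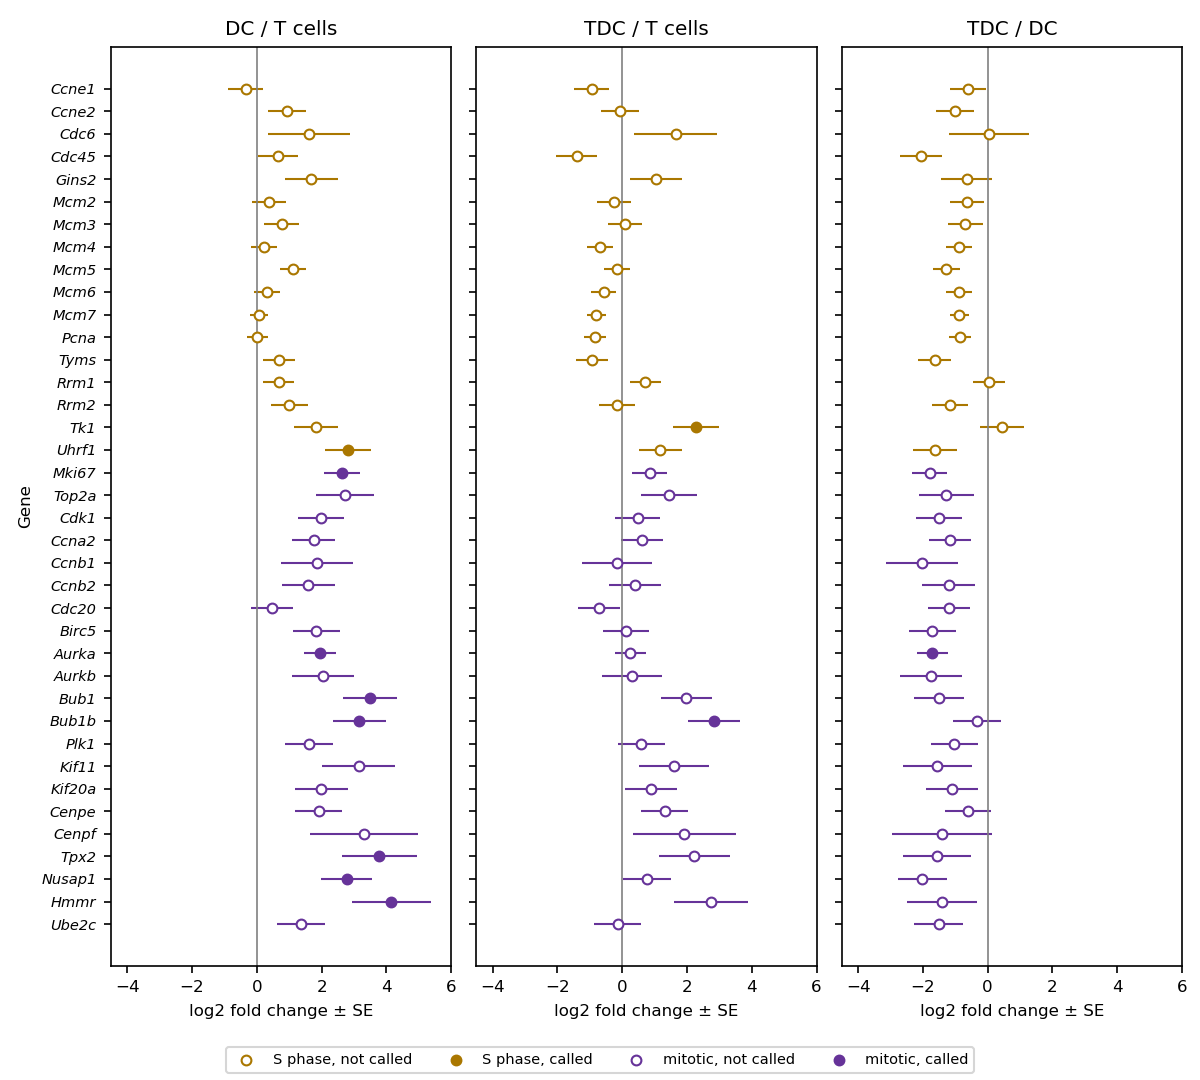
Points are log2 fold changes from edgeR with bars of ± 1 SE for the 38 genes (rows) in the 3 comparisons (panels), and filled points passed an adjusted p of 0.05. In DC against T cells all 21 mitotic genes lie to the right of 0, and in TDC against DC all 21 lie to the left.

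TDC were set against T cells with the same T libraries that DC were compared with, so the comparisons are not independent. Of 21 mitotic genes 1 was called higher in TDC and 0 lower by edgeR, and of 17 S phase genes again 1 was called higher and 0 lower. Among all tested genes 21.8% were called higher, 11.2% lower and 33% in either direction. The counts for both lists were below these shares. At an unadjusted p under 0.05, 3 mitotic genes were higher and 0 lower, and 1 S phase gene was higher and 3 lower. DESeq2 called 3 mitotic and 1 S phase gene higher and 0 and 2 lower, and limma-voom called 2 and 1 higher and 0 and 1 lower. The median log2 fold change was 0.76 for the mitotic and -0.16 for the S phase genes, against 0.14 over all tested genes. Single libraries moved both: the mitotic median was 0.29 without T replicate 1, 1.48 without T replicate 2 and 0.23 without TDC replicate 3. The S phase median was -0.35 without T replicate 1, near 0 without T replicate 3, 0.13 without TDC replicate 1, -0.31 without TDC replicate 2 and -0.39 without TDC replicate 3. Of the 21 mitotic fold changes 18 were above 0 with TMM factors (53.3% of all tested genes) and 14 with library size alone. Relative to the median of all tested genes the mitotic median was 0.62 with the former and 0.74 with the latter. The libraries of the 2 groups did not overlap for 2 mitotic genes, both higher in TDC (Tpx2 and Hmmr), for 3 S phase genes higher in TDC (Cdc6, Gins2 and Tk1) and for 3 lower (Mcm4, Mcm7 and Pcna), where 29.6% of all tested genes were higher and 22.4% lower in this way.

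Tk1, the thymidine kinase of the salvage pathway, was the S phase gene that rose in TDC. It was at 1.06, 11.9 and 12.4 CPM in T cells, 21, 39.8 and 29.4 CPM in DC and 38.9, 40.3 and 43.4 CPM in TDC. The TDC libraries were close together and above all T libraries, whereas T replicate 1 was far below the other T libraries. The means of T cells and TDC were 8.44 ± 6.4 and 40.9 ± 2.27 CPM (log2 fold change 2.27, SE 0.70, edgeR adjusted p = 0.0302). The call was lost without T replicate 2 (0.0532), TDC replicate 2 (0.0684) or TDC replicate 3 (0.0738) and with scaling by library size alone (0.0739), and without DC replicate 3 the count of S phase calls was 2, Cdc6 being added. In DC against T cells Tk1 had a log2 fold change of 1.83 (SE 0.69, edgeR adjusted p = 0.084), and in TDC against DC one of 0.44 (SE 0.67, adjusted p = 0.728).

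Bub1b was the mitotic gene that rose in TDC against T cells. The TDC libraries were at 3.68, 21.7 and 33.5 CPM, and TDC replicate 1 lay below T replicate 2, so the groups overlapped. Its log2 fold change was 2.84 (SE 0.81, edgeR adjusted p = 0.021). This call was lost without T replicate 1 (0.0749), T replicate 3 (0.0717), TDC replicate 2 (0.0552) or TDC replicate 3 (0.086) and by limma-voom (0.0583), and 3 mitotic genes (Bub1, Bub1b and Cenpe) were called without TDC replicate 1. Hmmr, with TDC libraries at 3.95, 9.65 and 14.8 CPM, and Tpx2, at 8.26, 15 and 22.9 CPM, lay above all T libraries and did not pass (log2 fold changes 2.74 and 2.22, edgeR adjusted p = 0.0942 and 0.148).

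Of the 17 S phase fold changes in TDC against T cells 11 were below 0. Pcna was at 118, 78 and 92 CPM in TDC, below all T libraries, with a log2 fold change of -0.84 (SE 0.33, edgeR adjusted p = 0.0793, 0.0264 without DC replicate 2). Mcm7 was at 35.3, 45.6 and 44.5 CPM in TDC and at 75.5, 76.6 and 65.6 CPM in T cells, also without overlap (log2 fold change -0.80, SE 0.28, edgeR adjusted p = 0.0513), and its 3′ end overlaps Cops6 on the opposite strand. The number of S phase genes called lower in TDC than in T cells changed with the scaling. It was 0 with TMM factors, 1 with DESeq2 size factors (Mcm7) and 2 with upper-quartile factors (Mcm7 and Pcna). It was 5 with library size alone, which also shifted the median of all tested genes by -0.61. The count changed with other settings as well, to 1 with the stricter filter (Mcm7), by limma-voom (Mcm7) or in the fit of 2 groups (Pcna). One was called without T replicate 1 (Cdc45) and 2 without DC replicate 2 (Mcm7 and Pcna).

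Mcm2 in TDC, at 21.2, 62.2 and 63.9 CPM, overlapped the T range (log2 fold change -0.26, SE 0.53, edgeR adjusted p = 0.749). Rrm2, at 22.7, 44.8 and 45.6 CPM in TDC, overlapped it as well (log2 fold change -0.16, SE 0.55, edgeR adjusted p = 0.858). Mki67 was at 9.78, 20.2 and 25.1 CPM in TDC, with replicate 1 inside the T range and the others above it, and a log2 fold change of 0.85 (SE 0.53, edgeR adjusted p = 0.253). Top2a, at 3.77, 28.1 and 59.4 CPM, and Cdk1, at 7.9, 7.03 and 18.5 CPM, overlapped the T range too (log2 fold changes 1.45 and 0.48, edgeR adjusted p = 0.227 and 0.639).

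Against DC, which share their libraries with the first comparison, TDC had the lower mean for every mitotic gene, and 1 passed the test. Of 21 mitotic genes 1 was called lower and 0 higher by edgeR, where 4.6% of all tested genes were called lower and 9.55% higher, with 4 lower and 0 higher at an unadjusted p under 0.05. All 21 fold changes were below 0, against 48.9% of all tested genes, with a median log2 fold change of -1.50 against 0.01 over all tested genes. For 9 genes (Mki67, Cdk1, Ccnb1, Birc5, Aurka, Aurkb, Tpx2, Nusap1 and Ube2c) all TDC libraries lay below all DC libraries, against 14.8% of all tested genes. DESeq2 called 3 lower, limma-voom 2, and both called 0 higher.

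Aurka was the mitotic gene called lower in TDC than in DC, and 1 of 21 is near the 4.6% of all tested genes called lower. TDC held 8.44, 7.3 and 17.7 CPM, below the 30.6, 30.9 and 47.3 CPM of DC and overlapping the T libraries. With a log2 fold change of -1.70 (SE 0.48, edgeR adjusted p = 0.0392), this call was lost in 11 of 21 alternatives, with adjusted p up to 0.205. Among them, 0 mitotic genes were called without T replicate 1, DC replicate 1, DC replicate 3, TDC replicate 1 or TDC replicate 2. Without T replicate 2 the Aurka call was kept, and 2 mitotic genes were called (Birc5 and Aurka).

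Mki67 missed the threshold in this comparison, with a log2 fold change of -1.79 (SE 0.54, edgeR adjusted p = 0.0522), and passed it in 8 of 21 alternatives, among them without DC replicate 2 (0.039). Nusap1, at 10.1, 9.7 and 20.9 CPM in TDC, had a log2 fold change of -2.02 (SE 0.76, edgeR adjusted p = 0.109). Bub1b had the smallest mitotic fold change here, with TDC replicates 2 and 3 inside the DC range and TDC replicate 1 below it (log2 fold change -0.32, SE 0.75, edgeR adjusted p = 0.834). For Top2a, Cdk1, Tpx2, Bub1 and Hmmr the log2 fold changes were -1.28, -1.50, -1.57, -1.51 and -1.42, with edgeR adjusted p of 0.373, 0.193, 0.379, 0.233 and 0.442.

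For 14 of 17 S phase genes the fold change between TDC and DC was below 0, against 48.9% of all tested genes, and none passed. Of these 17 genes 0 were called lower and 0 higher by edgeR, where 4.6% and 9.55% of all tested genes were called. At an unadjusted p under 0.05, 7 were lower and 0 higher. DESeq2 called 4 lower and limma-voom 2, and both called 0 higher. The median log2 fold change was -0.87. For 8 genes (Ccne2, Cdc45, Mcm5, Mcm6, Mcm7, Pcna, Tyms and Rrm2) all TDC libraries lay below all DC libraries, against 14.8% of all tested genes. Those nearest the threshold were Tyms, the thymidylate synthase, at 24.6, 52.9 and 29.4 CPM in DC against 10.9, 9.65 and 14.1 CPM in the TDC libraries (log2 fold change -1.63, SE 0.51, edgeR adjusted p = 0.0594), and Cdc45, a subunit of the active helicase, at 22.1, 25.8 and 18.2 and 3.5, 3.18 and 9.24 CPM (log2 fold change -2.05, SE 0.65, edgeR adjusted p = 0.0608).

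Both genes were low in every TDC library and did not overlap DC. With library size or upper-quartile scaling, or with a stricter filter on low counts, 4 S phase genes were called lower, and 2 were called without T replicate 1 (Cdc45 and Tyms) or DC replicate 2 (Mcm5 and Mcm7) and 1 without TDC replicate 3 (Cdc45). Pcna had a log2 fold change of -0.85 (SE 0.33, edgeR adjusted p = 0.122) between TDC and DC, Mcm2 one of -0.63 (SE 0.53, adjusted p = 0.49), and Rrm2 one of -1.16 (SE 0.56, adjusted p = 0.209). Uhrf1, at 5.92, 17 and 22.9 CPM in TDC, lay between the controls on average, with log2 fold changes of 1.18 against T cells (edgeR adjusted p = 0.209) and -1.64 against DC (adjusted p = 0.142).

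The 3 TDC libraries differed among themselves in mitotic transcripts. TDC replicate 3 was the highest TDC library for 21 of 21 mitotic genes and 13 of 17 S phase genes, against 27.5% of all tested genes, and TDC replicate 1 was the lowest for 17 and 12 of them, against 44.0%. Kif11, the motor that separates the spindle poles, was at 0.987, 14.2 and 30 CPM in TDC replicates 1, 2 and 3, and Cenpf, a kinetochore protein, at 0, 6.36 and 18.3 CPM. Cenpf had no read in replicate 1, where 3 reads are 0.269 CPM, while for both genes replicate 3 stood inside the DC range, of 15.3 to 65.6 and 5.36 to 42.8 CPM.

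Marker genes differed between the same libraries. In TDC replicates 1, 2 and 3 the erythroid markers summed to 2245, 1249 and 741 CPM and were lowest in replicate 3 for 9 of 12 genes, and the macrophage markers summed to 71476, 52348 and 38524 CPM. Of 9 DC markers 7 were highest in TDC replicate 3, among them Flt3 (13.7, 23.5 and 75.6 CPM) and Dpp4 (27.1, 32.8 and 101 CPM), although the sum of all 9 was 16628, 8319 and 10622 CPM. The progenitor receptor gene Kit was at 1.97, 10.8 and 27.1 CPM in TDC and at 229, 75.6 and 179 CPM in DC. DC replicate 2 was also the lowest DC library for 16 of 21 mitotic genes, against 35.4% of all tested genes. Of the 5 progenitor markers with reads in TDC, Kit and Cd34 were highest in replicate 3 and the others in replicate 2. The list summed to 6.37, 26 and 37.6 CPM, with Gata2 at 0 in both DC and TDC. The part of these markers in the mitotic levels was not tested.

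Within T cells, replicate 1 was the lowest library for 16 of 21 mitotic and 11 of 17 S phase genes, against 37.6% of all tested genes. Ccnb1, the B cyclin that partners Cdk1, was at 0.0703, 12.6 and 6.9 CPM there, Aurkb, the kinase of the chromosomal passenger complex, at 0.563, 10.2 and 19.6 CPM, and Birc5, the survivin subunit of the same complex, at 3.09, 37.1 and 8.86 CPM. T replicate 1 lay far below the other T libraries for Ccnb1 and Aurkb, and T replicate 2 far above them for Birc5. Their DC levels were 22.4, 14.4 and 34.8, 41.6, 37.3 and 46.7 and 45.2, 72.6 and 57.8 CPM, above all T libraries, with edgeR adjusted p of 0.265, 0.158 and 0.0971.

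Genes that act before S phase were read from a list of 16 cyclins, kinases and inhibitors of G1, of which 15 were tested (Cdkn2a had 14 reads in all). In DC against T cells 4 were called higher (Ccnd1, Cdk2, Cdkn1a and Cdkn2b) and 3 lower (Ccnd2, Cdkn1c and Cdkn2d), where 15.4% and 8.41% of all tested genes were called. In TDC against T cells 3 were higher (Ccnd1, Cdkn1a and Cdkn2b) and 4 lower (Ccnd2, Ccnd3, Cdkn2d and Cdc25b), a count that was 2 without any single T library, TDC replicate 2 or TDC replicate 3. The shares of all tested genes were 21.8% and 11.2%. In TDC against DC, with shares of 9.55% and 4.6%, 1 was higher (Ccnd2) and 3 lower (Ccnd1, Ccnd3 and Cdkn1a), which became 0 higher without DC replicate 1, DC replicate 3 or TDC replicate 1 and 1 lower without TDC replicate 1 or TDC replicate 2. The lists of called genes here and below were named after their values were seen.

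The D cyclins, which start the phosphorylation of RB, were spread over the 3 groups in different ways. Ccnd1 was at 0.211, 0.0494 and 0.67 CPM in T cells, 484, 823 and 393 CPM in DC and 87.6, 44.3 and 89.9 CPM in TDC. No libraries of any 2 groups overlapped, and T cells were close to no reads. Ccnd1 had a log2 fold change of 10.79 (SE 0.83, edgeR adjusted p = 1.44e-05) in DC against T cells, 7.85 (SE 0.75, adjusted p = 4.17e-05) in TDC against T cells and -2.94 (SE 0.57, adjusted p = 0.00694) in TDC against DC, and no single library ended any of these calls. The call in TDC against DC was lost without all libraries of replicate number 1 (edgeR adjusted p = 0.0892). The annotated 3′ end of Ccnd1 overlaps LTO1 on the opposite strand.

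Ccnd2 had another order, at 545, 968 and 660.4 CPM in T cells, 72.3, 101 and 37.2 CPM in DC and 463, 211 and 166 CPM in TDC. All T libraries were above all TDC libraries, and these above all DC libraries. It fell in DC against T cells (log2 fold change -3.37, SE 0.52, edgeR adjusted p = 0.000933) and in TDC against T cells (-1.37, SE 0.48, adjusted p = 0.0493), and it was higher in TDC than in DC (2.00, SE 0.49, adjusted p = 0.0216). The call against T cells was lost without any single T library, DC replicate 1, TDC replicate 2 or TDC replicate 3 (adjusted p 0.0627 to 0.156), and that against DC without DC replicate 1 (0.0671), DC replicate 3 (0.0559) or TDC replicate 1 (0.0555). The annotated 3′ end of Ccnd3 overlaps Bysl on the opposite strand. Ccnd3 was at 194, 234 and 297 CPM in T cells, 249, 125 and 228 CPM in DC and 64.4, 78.1 and 114 CPM in TDC, with TDC below both controls. It fell in TDC against T cells (log2 fold change -1.50, SE 0.36, edgeR adjusted p = 0.00943) and against DC (-1.23, SE 0.36, adjusted p = 0.0446), the latter lost in 12 of 21 alternatives with adjusted p up to 0.305, among them without any single T library, DC replicate 1, DC replicate 3, TDC replicate 1 or TDC replicate 2.

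The inhibitors of these kinases differed as well. Cdkn1a, which encodes p21, was at 6.33, 10.6 and 2.52 CPM in T cells, 111, 188 and 67.4 CPM in DC and 25.3, 21.5 and 29.1 CPM in TDC. The 3 groups did not overlap, with DC highest and T cells lowest. Its log2 fold change was 4.23 (SE 0.59, edgeR adjusted p = 0.00049) in DC against T cells, 1.96 (SE 0.54, adjusted p = 0.0175) in TDC against T cells, lost without T replicate 1 (0.0577), and -2.27 (SE 0.54, adjusted p = 0.0182) in TDC against DC, lost without TDC replicate 1 (0.0517) or TDC replicate 2 (0.0689).

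Cdkn2b, which encodes p15, had 2 reads in the whole T group, and was at 6.35, 16.9 and 15.2 CPM in DC and 11.4, 5.24 and 5.96 CPM in TDC. The ratio of summed reads over library sizes was 312 for DC over T cells (95% exact binomial interval 86.2 to 2586) and 191 for TDC over T cells (52.4 to 1583), where the intervals cover counting error only. Both were called (edgeR adjusted p = 0.000439 and 0.000571). Cdkn2d, which encodes p19, an inhibitor of the same kinases, went the other way, at 137, 279.7 and 148 CPM in T cells, 40.3, 64.7 and 42 CPM in DC and 22.9, 9.81 and 24.4 CPM in TDC. T cells were highest and TDC lowest without overlap, with log2 fold changes of -1.94 (SE 0.44, edgeR adjusted p = 0.00899) in DC and -3.31 (SE 0.47, adjusted p = 0.000446) in TDC against T cells and -1.36 (SE 0.44, adjusted p = 0.0643) in TDC against DC.

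**Figure D5:**
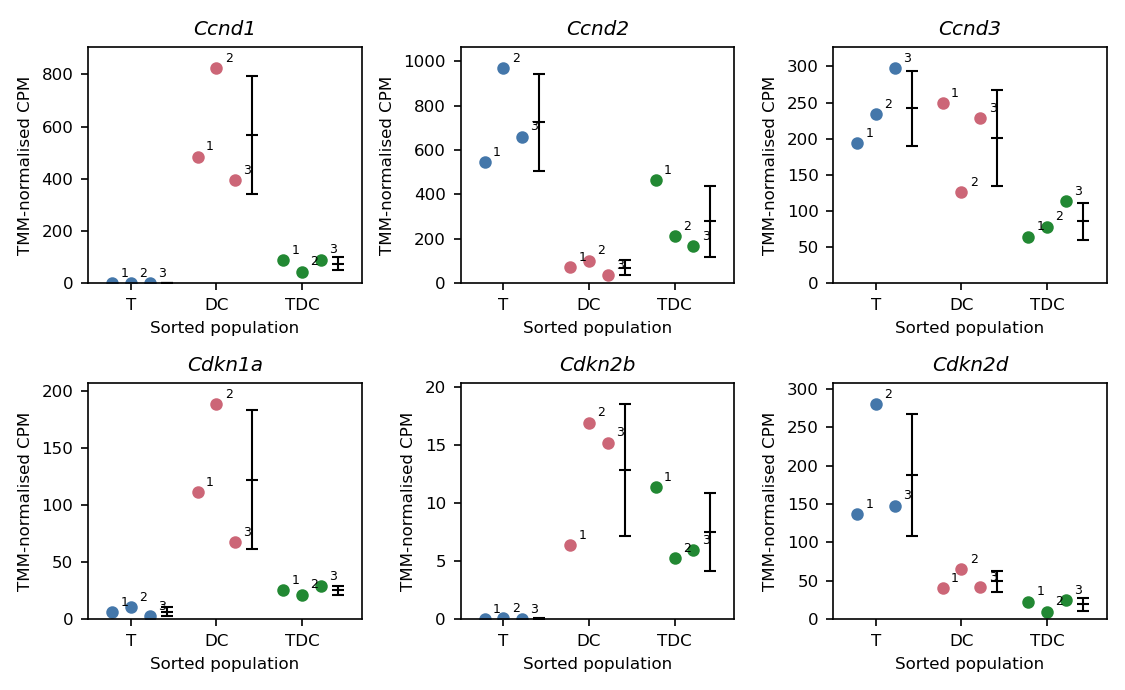
Points are TMM-normalised CPM in the 9 libraries (numbers mark replicates) and bars the mean ± SD of each group, for 3 D cyclins and 3 inhibitors of their kinases, each on its own linear axis. Ccnd1 and Cdkn1a are highest in DC, Ccnd2 and Cdkn2d in T cells, and Ccnd3 is lowest in TDC.

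Among 20 regulators of the RB, E2F and DREAM systems, 5 were called higher in DC than in T cells (Rb1, E2f1, E2f2, E2f7 and Foxm1) and 2 lower (E2f5 and Myc), where 15.4% and 8.41% of all tested genes were called. In TDC against T cells, with shares of 21.8% and 11.2%, 2 were higher (E2f1 and Foxm1) and 0 lower by edgeR, DESeq2 or limma-voom, with 1 lower at an unadjusted p under 0.05. In TDC against DC, with shares of 9.55% and 4.6%, 1 was higher (Myc) and 1 lower (E2f2). These small counts moved by more than 1.5 times without most single libraries, down to 2 higher and 0 lower in DC against T cells. The activator gene E2f1 was at 2.18, 3.26 and 3.19 CPM in T cells, 42, 34.5 and 59.1 CPM in DC and 34.1, 32.6 and 26.2 CPM in TDC. DC and TDC libraries were all above all T libraries, and the log2 fold changes of 3.97 (SE 0.40, edgeR adjusted p = 5.96e-05) and 3.42 (SE 0.39, adjusted p = 0.000113) against T cells were called under all 21 alternatives.

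Foxm1, which drives the mitotic wave, was at 0.211, 0.494 and 0.67 CPM in T cells, 11.2, 3.48 and 37.1 CPM in DC and 2.06, 6.08 and 5.74 CPM in TDC. T cells were lowest without overlap, and DC and TDC overlapped. It rose in DC (log2 fold change 5.20, SE 1.02, edgeR adjusted p = 0.00408) and in TDC (3.30, SE 0.95, adjusted p = 0.0217) against T cells, the latter lost in 8 of 21 alternatives, among them limma-voom (0.0719) and the fits without T replicate 1 (0.0754), T replicate 2 (0.0663), TDC replicate 2 (0.0657) or TDC replicate 3 (0.06). E2f7, a repressor of E2F targets, rose in DC (log2 fold change 3.32, SE 0.90, edgeR adjusted p = 0.0206, lost without T replicate 1, T replicate 2 or DC replicate 1, with adjusted p up to 0.0763). The growth regulator Myc was at 77.9, 138 and 145 CPM in T cells, 57.1, 64.8 and 49.5 CPM in DC and 129, 215 and 127 CPM in TDC, lower in DC than in both other groups (edgeR adjusted p = 0.044 against T cells and 0.0186 for TDC against DC). The former was lost in 11 of 21 alternatives and the latter in 6, among them without DC replicate 1 (0.117 and 0.0635) or DC replicate 3 (0.123 and 0.059).

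Of 47 further replication genes 10 were called lower in TDC against T cells (Cdt1, Cdc7, Pold2, Pole2, Rpa2, Chaf1b, Timeless, Dut, Slbp and Nasp) and 0 higher (21.8% of all tested genes), with a median log2 fold change of -0.45 (-0.74 without T replicate 1 and -0.82 without TDC replicate 3). Against the 11.2% of all tested genes called lower, these were 10 of 47, and the count was 5 or 6 without T replicate 1, T replicate 2 or TDC replicate 2 and 20 with library size scaling. By DESeq2 3 were called higher and by limma-voom 1, and 1 was higher at an unadjusted p under 0.05 in edgeR. In DC against T cells 3 were higher and 3 lower (Orc5, Cdt1 and Pold2), against 15.4% and 8.41% of all tested genes. In TDC against DC, with shares of 9.55% and 4.6%, 0 were higher by all 3 tools (1 at an unadjusted p under 0.05) and 2 lower (Prim1 and Chaf1b). The first count was 1 without T replicate 1 or DC replicate 1 and 0 without T replicate 3. The second was 5 without DC replicate 2, and the last fell to 0 or 1 without any single library.

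Cdt1, which loads the MCM helicase, was at 71.6, 58.8 and 48.5 CPM in T cells, 16.3, 18.7 and 24.7 CPM in DC and 14.6, 20.9 and 14.9 CPM in TDC. T cells were highest without overlap, and DC and TDC overlapped (log2 fold changes -1.58, SE 0.34, edgeR adjusted p = 0.00698, and -1.83, SE 0.35, adjusted p = 0.00262). Pold2, a subunit of the lagging-strand polymerase, had the same order, at 78.8, 117 and 115, 40.6, 46.3 and 29.8 and 37.1, 27.5 and 29.7 CPM in T cells, DC and TDC. Its log2 fold changes against T cells were -1.41 (SE 0.32, edgeR adjusted p = 0.00823) in DC and -1.72 (SE 0.32, adjusted p = 0.00233) in TDC. Rpa2, which coats single strands, was at 73.2, 106 and 62.8 CPM in T libraries and 25.6, 19.9 and 24.9 CPM in those of TDC (log2 fold change -1.78, SE 0.38, edgeR adjusted p = 0.00489), and Chaf1b, a histone chaperone subunit, at 20.8, 31.6 and 27.7 and 9.33, 5.13 and 6.48 CPM (-1.94, SE 0.43, adjusted p = 0.00622). Both were lower in every TDC library than in every T library.

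A second list of 48 mitotic genes outside the 21 had a median log2 fold change of 1.33 in DC against T cells, 0.46 in TDC against T cells and -1.26 in TDC against DC. The second of these turned sign without TDC replicate 3 (-0.30) and with library size alone (-0.10), and was 0.11 by limma-voom. In DC against T cells 6 were called higher (Spc25, Cdca3, Anln, Cep55, Ckap2l and Tacc3) and 1 lower (Smc4), where 15.4% and 8.41% of all tested genes were called. For 26 of 48 all DC libraries lay above all T libraries, against 21.8%. The 6 became 16 without TDC replicate 1 and 2 without all libraries of replicate number 1, while DESeq2 called 20 and limma-voom 17. In TDC against T cells, with shares of 21.8% and 11.2%, 2 were higher (Incenp and Anln) and 2 lower (Cenpa and Smc4), the latter count being 1 without T replicate 2 or TDC replicate 2. In TDC against DC, with shares of 9.55% and 4.6%, 0 were higher by edgeR (1 at an unadjusted p under 0.05) or DESeq2 and 1 by limma-voom, and 4 were lower (Spc24, Cenpa, Cks2 and Hmgb2), a count that fell to between 0 and 2 without T replicate 2, T replicate 3, TDC replicate 1 or TDC replicate 2.

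Anln, the anillin of the cleavage furrow, was at 0.281, 0.0988 and 0 CPM in T cells, 11.4, 8.43 and 26.7 CPM in DC and 1.79, 6.8 and 11.8 CPM in TDC, with DC and TDC above all T libraries (log2 fold changes 6.94, SE 1.21, edgeR adjusted p = 0.00204, and 5.76, SE 1.16, adjusted p = 0.00375). Tacc3, a spindle microtubule protein, was at 15.5, 18.3 and 11 CPM in T cells and 67.9, 37.8 and 80.1 CPM in DC, without overlap (log2 fold change 2.05, SE 0.39, edgeR adjusted p = 0.0031). Incenp, the scaffold of the chromosomal passenger complex, had its highest mean in TDC, at 14.9, 19.5 and 20.1 CPM in T cells, 38.7, 21.5 and 66 CPM in DC and 64.7, 115 and 110.2 CPM in TDC. It rose in TDC against T cells (log2 fold change 2.41, SE 0.45, edgeR adjusted p = 0.00235), while its partners Aurkb and Birc5 did not pass in that comparison (adjusted p = 0.838 and 0.911).

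Smc4, a condensin subunit that compacts mitotic chromosomes, was the one gene of this list called lower in both DC and TDC against T cells. It was at 833, 691 and 521 CPM in T cells, 168, 199 and 202 CPM in DC and 68.9, 64.8 and 138 CPM in TDC. All T libraries were far above all others, and TDC were lowest. The log2 fold change was -1.85 (SE 0.36, edgeR adjusted p = 0.00386) in DC and -2.91 (SE 0.37, adjusted p = 0.000244) in TDC against T cells. No single library ended either call, but that in DC was lost without all libraries of replicate number 1 (edgeR adjusted p = 0.075).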

How the data were processed

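Bulk RNA was measured in 9 libraries of 3 sorted mouse spleen populations, 3 libraries each. The authors deposited whole-number read counts per gene symbol. The submitters' processing notes name FastQC, MultiQC, Trimmomatic, STAR and featureCounts without versions, and the build hg38, although symbols and samples are mouse. The annotation and strand setting were not given in the sources read, so a gene and one overlapping it on the other strand cannot be told apart for certain. Besides the cases named above, this holds for Ccne2 (1307 reads), which overlaps Ints8 (9813 reads), and for Gins2 (1109 reads), which overlaps Gse1 (1349 reads). Foxm1 (1201 reads) overlaps 2 genes on its own strand, Gm44596, with 0 reads, and Tex52, for which no count was found. Rows for pseudogenes of the genes reported held at most 0.79% of their parents' reads. 2 symbols occurred more than once because a spreadsheet had turned them into dates, and no gene reported here is among them.

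The counts were tested as deposited with edgeR 4.0.16 (R 4.3.3): filterByExpr (minimum count 10, minimum total 15) kept 14708 genes, holding 99.8% or more of every library's reads. All 3 groups entered a robust quasi-likelihood fit with TMM factors (6 residual degrees of freedom), with Benjamini-Hochberg adjustment over all tested genes at 0.05 (common biological coefficient of variation 0.588). The standard error is the log2 fold change divided by the square root of its F value. Libraries held 10986544 to 18071425 reads in T cells, 14973484 to 25676640 in DC and 14594850 to 22677130 in TDC, and intervals and floors cover counting error only. Replicates differed by more than sampling noise (chi-square per degree of freedom at least 62.3). The test was also run on simulated counts in which far fewer genes differed between groups than were called here, and no conclusion is drawn from that run.

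The alternatives changed the scaling (DESeq2 size factors, library size alone, upper quartile), the filter (none, or a mean of 5 CPM), the test (DESeq2 1.42.0 Wald, limma-voom from limma 3.58.1), the groups fitted (2) and the block (replicate number), or omitted a library or all libraries of a number. Members and lists were chosen with earlier results of these data known. Full values are given for members called in any comparison and for Mki67, Top2a, Pcna, Mcm2, Cdk1 and Rrm2, and for up to 4 genes of each other list by smallest adjusted p. Ccnd2 and Ccnd3, and other members given as examples, were named after their values were seen. Markers of B cells, plasma cells, NK cells, neutrophils and megakaryocytes summed to at most 408, 751, 154, 66.5 and 18.5 CPM in any library, and progenitor markers to at most 247 CPM. Some genes that were called or at 0 are counted but not reported here by name.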

Additional observations from a re-analysis of the deposited data

How the results depend on the processing

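Each result was recomputed under 21 alternatives. All mitotic fold changes but at most 1 of 21 stayed above 0 in DC against T cells, and at least 19 of 21 stayed below 0 in TDC against DC, while the counts of calls were small and moved. Mitotic genes higher in DC than in T cells (main count 7) numbered 14 by DESeq2 and 14 by limma-voom, and 1 to 10 with libraries left out. S phase genes higher in that comparison (1) numbered 2 without a filter, 3 by DESeq2, 2 by limma-voom and 0 to 2 with libraries left out. In TDC against T cells, S phase genes higher (1) numbered 0 with library size scaling and 0 to 2 with libraries left out, and mitotic genes higher (1) numbered 3 by DESeq2, 2 by limma-voom and 0 to 3. S phase genes lower there (0) numbered 1 with DESeq2 size factors, 5 with library size, 2 with upper-quartile factors, 1 with the stricter filter, 2 by DESeq2, 1 by limma-voom, 1 in the fit of 2 groups and 0 to 2 with libraries left out. In TDC against DC, S phase genes lower (0) numbered 4 with library size, 4 with upper-quartile factors, 2 without a filter, 4 with the stricter filter, 4 by DESeq2, 2 by limma-voom, 2 in the fit of 2 groups and 0 to 2, and mitotic genes lower (1) numbered 2 with library size, 2 with upper-quartile factors, 2 without a filter, 2 with the stricter filter, 3 by DESeq2, 2 by limma-voom and 0 to 2. The cause of these changes was not tested.

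Signs turned only for values that were not called. Pcna in DC against T cells was -0.00707 with DESeq2 size factors, -0.32 with library size, -0.076 with upper-quartile factors, -0.00718 by DESeq2, -0.054 by limma-voom, -0.00995 in the fit of 2 groups, -0.00833 with the replicate block and -0.29 to 0.18 with libraries left out. Rrm2 in TDC against T cells was 0.096 by limma-voom, 0.026 with the replicate block and -0.61 to 0.31 with libraries left out. Aurka in TDC against T cells was -0.28 with library size and -0.45 to 0.78 with libraries left out, and Myc -0.23 with library size. With libraries left out, the fold change in DC against T cells ran from -0.19 to 0.78 for Mcm2 and from -0.58 to 0.034 for Ccnd3, that in TDC against T cells from -0.63 to 0.13 for Mcm2 and from -0.37 to 1.90 for Cdk1, and that in TDC against DC from -0.97 to 0.49 for Bub1b and from -0.56 to 0.033 for Cdt1. Scaling by library size shifted the median of all tested genes by -0.29 and took the share of calls that were higher from 64.7% to 50.2% in DC against T cells. The shift was -0.61 (66.0% to 42.9%) for TDC against T cells and -0.29 (67.5% to 53.1%) for TDC against DC.

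Libraries with the same replicate number share a prefix in their column names and the number of mice pooled. The labels do not say whether these libraries share animals. Their correlations ran from -0.38 to 0.22 over all tested genes and from -0.53 to 0.43 over the 38 genes. Of the 9 libraries 1 correlated best with its own number, and the pairing was not used in the main fit. Such correlations cannot show whether animals were shared. With the replicate block, DC against T cells gave 8 calls, as without it, Top2a and Kif11 taking the place of Tpx2 and Hmmr, and TDC against DC gave Mki67 in place of Aurka. As a floor for genes without a read, 3 reads are 0.155 CPM in T replicate 3 (Cenpf, Tpx2 and Hmmr). They are 0.179 CPM in DC replicate 3 (Cdc6) and 0.269 CPM in TDC replicate 1 (Cenpf). Each of these genes stood above that floor in the other libraries of its group. Cdc6, for example, was at 10.2 and 15.1 CPM in DC replicates 1 and 2. The cause of the zeros was not tested. With 3 pools a group, a gene that misses the threshold is not shown to be at one level in 2 groups.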
